A study of Mus musculus with 4 samples.

Results

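The 45 genes described here code for the machinery that condenses, captures and separates chromosomes at cell division and then divides the cell between them. They were taken by name from a list of division genes, and all 45 were among the 14984 genes of the deposited table. The list was chosen with earlier results of these data known. They fall into 4 roles: 11 kinases, cyclins and genes of the same phase, 16 kinetochore and checkpoint genes, 13 spindle motor and cytokinesis genes, and the 5 subunits of condensin. Ribosome footprints, the stretches of mRNA shielded from nuclease by a ribosome, were sequenced from whole mouse testes at day 10. The 2 Eif5 cKO samples came from a cross of Eif5 fl/fl mice with Stra8-Cre mice, in which germ cells lose Eif5, the gene of a translation initiation factor. The 2 control samples were testes of the same age, of a genotype the labels do not give. Stra8-Cre is driven by a promoter active in germ cells from the spermatogonial stage, so Sertoli, Leydig and other somatic cells of the cKO testis keep Eif5. Whether a group's 2 samples are different animals is not stated, so the p-values reflect spread among the samples at hand, and that spread could be technical.

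A dividing cell enters mitosis when cyclin A and cyclin B activate the kinase CDK1, which with Aurora and Polo-like kinases drives chromosome condensation and spindle assembly. Kinetochores, protein plates built on the centromere around the histone CENP-A, tie chromosomes to microtubules, and the spindle checkpoint holds back the anaphase-promoting complex until every kinetochore is attached. Kinesin motors then move chromosomes and bundle the central spindle, where the cleavage furrow forms. In the testis of a young mouse spermatogonia divide by mitosis, the first germ cells go on to meiosis, and Sertoli cells are still dividing, so footprints on these genes can come from germ cells and from somatic cells.

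Over the genes of the deposited table, 2296938 and 2782527 reads were recovered for the Eif5 cKO libraries and 2934609 and 2225964 for the controls. They were recovered from deposited values that had been divided by a size factor for each library. No gene of the table had fewer than 10 reads in total, and reads of genes left out of it are not counted. All levels below are these deposited values, which compare 1 gene across libraries but not 1 gene with another, because they are not per length. Eif5 itself stood at 173 and 266 in the Eif5 cKO libraries against 365 and 304 in the controls. Both cKO libraries were below both controls, with a log2 fold change of -0.63 (SE 0.25, limma adjusted p 0.319). The value sums the whole gene in a whole testis, so the deleted part in germ cells was not measured on its own. Across all genes the 2 cKO libraries correlated at 0.920 on the log2 scale and the 2 controls at 0.944, while cKO replicate 2 correlated at 0.930 and 0.923 with the controls. The second cKO library was thus no further from the controls than from the first cKO library.

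Promoters of division genes are known for 2 short motifs: the cell cycle homology region (CHR), which the MuvB complexes recognise, and the CCAAT box, which NF-Y binds. A RefSeq promoter table for GRCm38.p6 held an entry for 38 of the 45 genes, and Ccna2, Aurkb, Spc24, Incenp, Kif20a, Tpx2 and Smc4 had none. The first entry for each gene was searched over the 250 bases before the transcription start, on both strands, for TTTGAA or TTCGAA as the CHR and for CCAAT as the CCAAT box. The 150 bases before the start are shown for 8 genes that differ in how their footprints stood in the cKO testis. Bub1 (chr2:127831860-127832009, minus strand) and Cenpe (chr3:135212413-135212562, plus strand) passed the test for a difference, and Cenpf (chr1:189688087-189688236, minus strand), Cdc20 (chr4:118437344-118437493, minus strand), Kif11 (chr19:37376232-37376381, plus strand) and Top2a (chr11:99024190-99024339, minus strand) lay low without passing it. Cdk1 (chr10:69352913-69353062, minus strand) and Spc25 (chr2:69206214-69206363, minus strand) lay close to the control level. Each runs 5′ to 3′ towards the start, and capitals mark matches to either motif, read on the strand shown or, as TTCAAA or ATTGG, on the other strand.
Bub1: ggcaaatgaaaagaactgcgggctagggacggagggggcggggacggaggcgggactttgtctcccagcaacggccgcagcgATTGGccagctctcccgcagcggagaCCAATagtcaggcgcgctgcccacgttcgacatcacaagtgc
Cenpe: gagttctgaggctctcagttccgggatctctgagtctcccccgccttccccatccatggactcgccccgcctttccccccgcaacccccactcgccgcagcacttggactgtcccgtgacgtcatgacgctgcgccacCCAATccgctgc
Cenpf: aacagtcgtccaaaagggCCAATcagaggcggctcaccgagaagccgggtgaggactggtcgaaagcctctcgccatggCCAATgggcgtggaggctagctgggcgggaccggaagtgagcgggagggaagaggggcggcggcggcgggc
Cdc20: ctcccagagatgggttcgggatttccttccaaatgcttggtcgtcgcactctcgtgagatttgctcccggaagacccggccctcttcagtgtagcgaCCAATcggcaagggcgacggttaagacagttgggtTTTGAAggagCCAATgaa
Kif11: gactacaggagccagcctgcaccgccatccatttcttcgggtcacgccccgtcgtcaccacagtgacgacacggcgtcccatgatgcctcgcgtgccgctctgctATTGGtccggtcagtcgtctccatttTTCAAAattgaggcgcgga
Top2a: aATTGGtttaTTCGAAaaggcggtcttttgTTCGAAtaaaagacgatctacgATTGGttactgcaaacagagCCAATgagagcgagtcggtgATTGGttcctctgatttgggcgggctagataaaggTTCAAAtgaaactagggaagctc
Cdk1: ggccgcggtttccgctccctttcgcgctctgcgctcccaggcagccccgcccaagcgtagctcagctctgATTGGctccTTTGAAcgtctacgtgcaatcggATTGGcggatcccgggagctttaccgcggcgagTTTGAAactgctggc
Spc25: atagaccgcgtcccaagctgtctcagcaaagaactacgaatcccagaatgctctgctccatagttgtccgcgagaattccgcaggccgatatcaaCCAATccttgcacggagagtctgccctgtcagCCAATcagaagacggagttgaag

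The 2 motifs were common among these promoters. The CHR letters occurred in 15 of 38 members (39.5%), against 17.4% of all 27025 promoters of that table and 11.6% of the 8970 that belong to tested genes. CCAAT occurred in 28 of 38 members (73.7%), against 34.5% of all promoters and 36.5% of those of tested genes. Both motifs stood in 14 members (36.8%), against 6.21% of all promoters and 4.66% of those of tested genes, and no CHR match overlapped a CCAAT match in a member. Members with and without a motif had close medians. The median log2 fold change was -0.45 over the 15 members with CHR letters and -0.46 over the 22 tested members without them. It was -0.49 over 27 members with CCAAT and -0.40 over 10 without. Members with both motifs also differed: the promoters of Top2a and Cdk1 printed above carry several matches to each motif, and their log2 fold changes were -0.80 and 0.09. A match is a run of letters and does not show that a factor binds there.

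**Figure D1:**
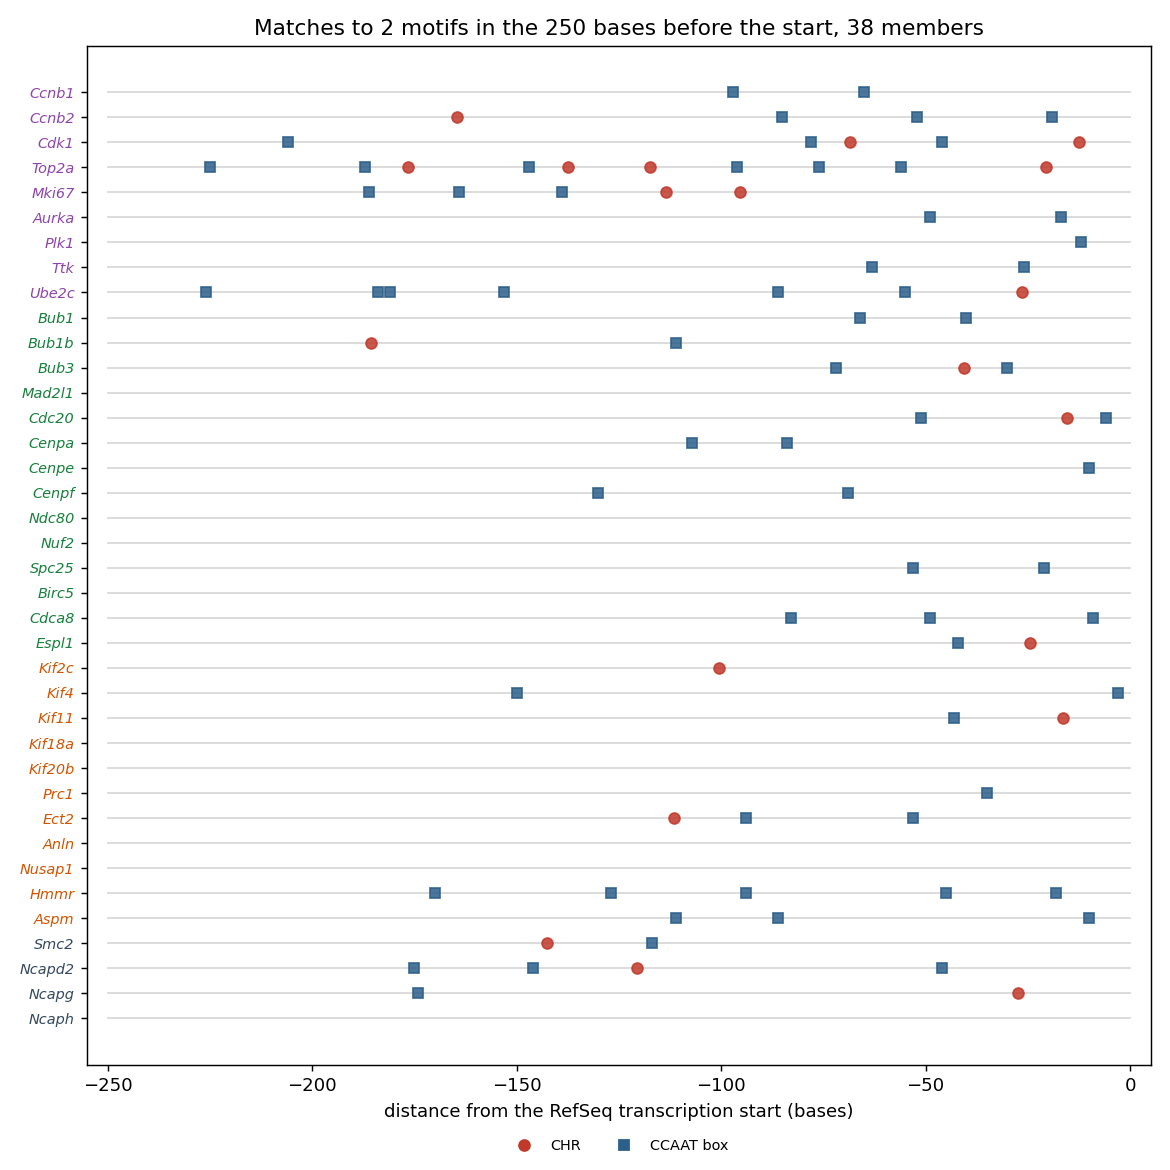
Positions of CHR matches (red circles) and CCAAT matches (blue squares) in the 250 bases before the RefSeq transcription start of the 38 members with a promoter entry, in bases from the start, with gene names coloured by role. Most members carry CCAAT matches, 15 carry CHR letters, and several, among them Nuf2, Ndc80 and Birc5, carry neither.

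Over all 45 genes, footprints stood lower in the Eif5 cKO testes. The genes held 0.244% and 0.275% of recovered reads in the cKO libraries and 0.445% and 0.353% in the controls. The means were 0.259 ± 0.0224% against 0.399 ± 0.0655% (SD, n = 2 each). Their deposited values summed to 6355 and 6871 in the cKO libraries and 10662 and 9008 in the controls, a ratio of 0.672. Both cKO sums lay below both control sums. The test was limma on log2(value + 1) over 12095 genes with enough reads, with Benjamini-Hochberg adjustment over all of them and a call at an adjusted p under 0.05. It covered 44 members, since Ccnb1 had too few reads. With 2 samples against 2, a permutation of the labels could not give a two-sided p below 0.333, so calls rest on the spread that limma pools over genes.

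In that fit 42 of the 44 members had a negative log2 fold change, against 49.7% of all genes tested, and their median was -0.46 against 0.003 over all genes. Because the list was chosen with earlier results of these data known, these and the following shares are a description only. Bub1, Cenpe and Kif20a fell, which is 3 of 44 where 0.604% of all genes tested fell. No member rose, where 0.0744% of all genes tested did, and edgeR and DESeq2 also called none higher. At an unadjusted p under 0.05, 18 members were lower, against 6.31% of all genes tested, and none were higher. Both cKO libraries lay below both controls in 26 members, against 20.9% of all genes tested. The groups overlapped in the other 18, and no member had both cKO libraries above both controls. On recovered reads, edgeR's quasi-likelihood test called the same 3 members, where it called 0.661% of all genes lower. DESeq2 called Cenpe, Kif20a and Cenpf but not Bub1, where it called 0.48% of all genes lower.

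The 41 tested members that did not pass are not shown to be unchanged. The 95% interval of the log2 fold change included -1 in 25 of the 44 members and lay wholly above -1 in 19. Standard errors ran from 0.23 to 0.46, and reads per member and library from 20 to 1518. In a whole testis, fewer dividing cells and fewer footprints per cell cannot be told apart. Nor can less mRNA and fewer ribosomes on each mRNA, since RNA libraries were not analysed here.

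**Figure D2:**
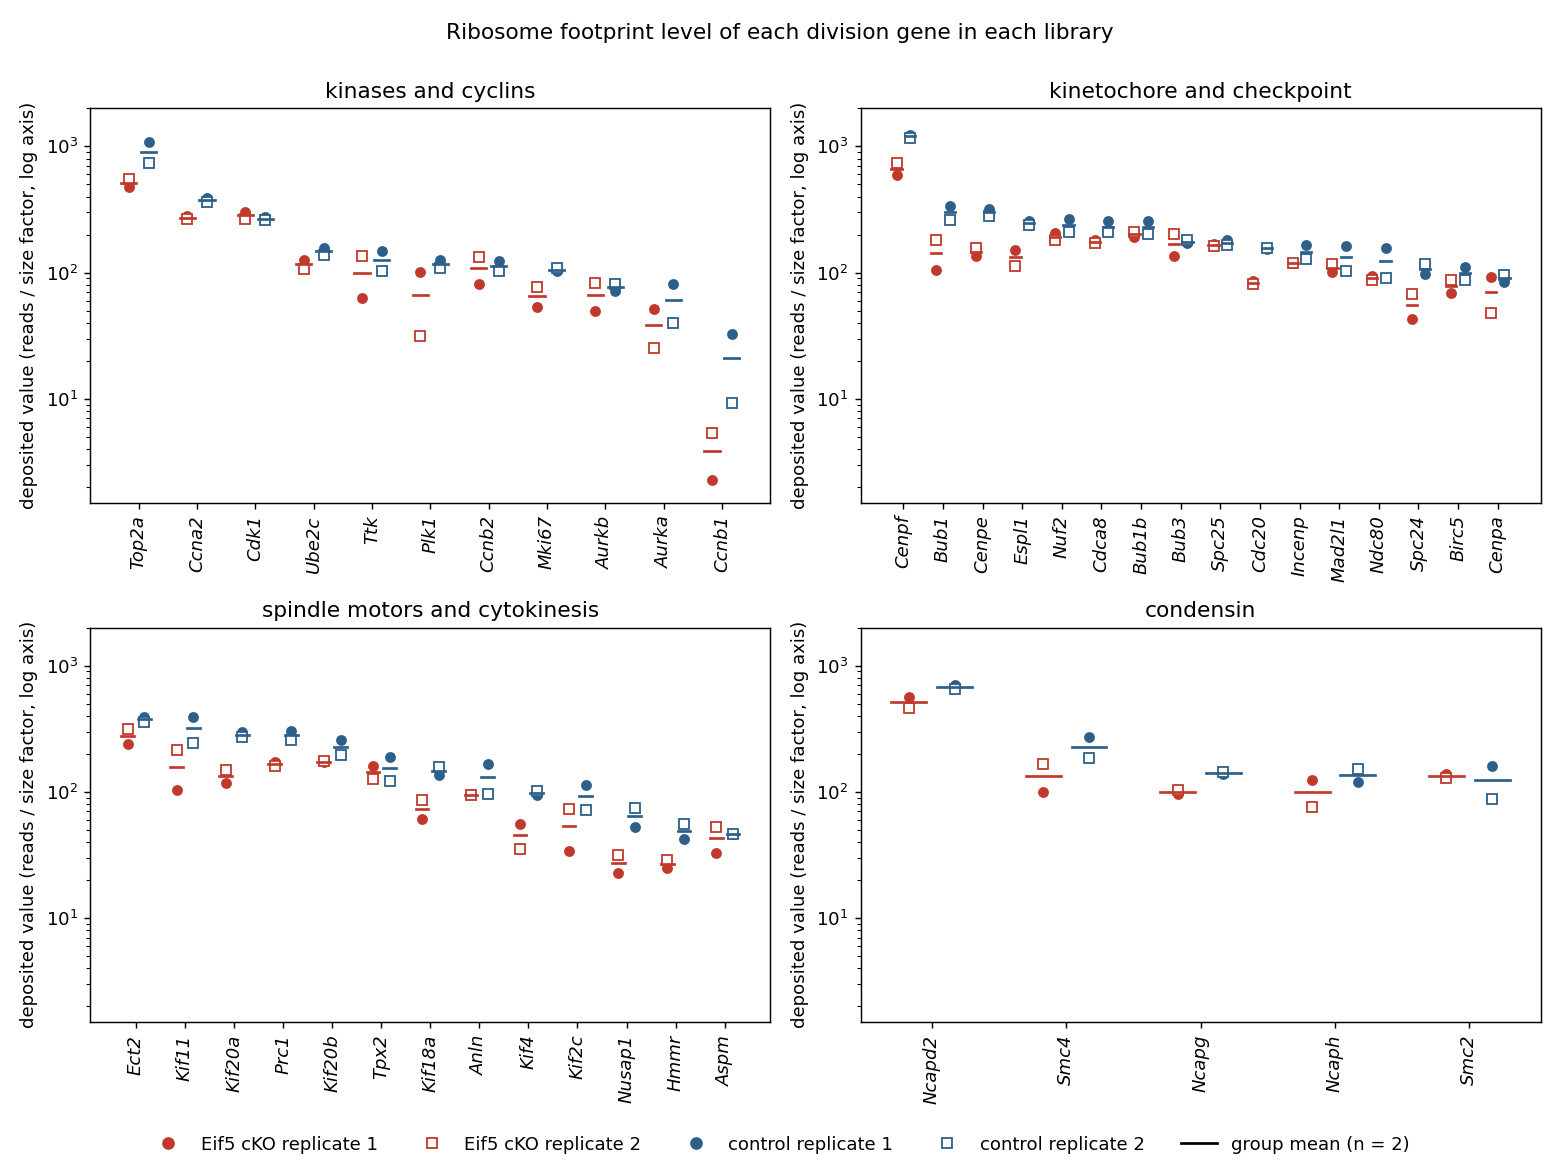
Deposited footprint value (reads divided by the library's size factor, log axis) of all 45 genes by role, with Eif5 cKO replicates in red left of control replicates in blue and bars for group means (n = 2). In 26 of the 44 tested genes both red points lie below both blue points, as for Cenpf and Kif20a, while Cdk1 and Spc25 show no gap.

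Among the kinases, cyclins and genes of the same phase, 9 of the 10 tested lay below the control level and none passed the test. The median log2 fold change was -0.45, and 4 members had an unadjusted p under 0.05. Top2a, the DNA topoisomerase that untangles sister chromatids, had values of 478 and 552 in the Eif5 cKO libraries against 1082 and 736 in the controls. Both cKO values were below the lower control, but the 2 controls were themselves far apart. Its log2 fold change was -0.80 (SE 0.23, limma adjusted p 0.109). Plk1, the Polo-like kinase of mitotic entry and centrosome maturation, had 101.1 and 31.4 in the cKO libraries against 125 and 108 in the controls. The groups did not overlap, and cKO replicate 1 was close to the controls while cKO replicate 2 was far below. The log2 fold change was -1.03 (SE 0.38, limma adjusted p 0.268).

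Mki67, which codes for the Ki-67 protein that coats mitotic chromosomes and marks cycling cells, had 53.4 and 76.3 in the Eif5 cKO libraries against 102 and 109 in the controls. Both cKO values were clearly below the closely matched controls, with a log2 fold change of -0.72 (SE 0.33, limma adjusted p 0.423). Ccna2, cyclin A2 of S phase and mitotic entry, had 278 and 264 in the cKO libraries against 391 and 364 in the controls. Here both pairs were tight and the groups did not overlap, at a log2 fold change of -0.48 (SE 0.23, limma adjusted p 0.468). Ube2c, the ubiquitin-conjugating enzyme of the anaphase-promoting complex, had 126 and 107 in the cKO libraries against 156 and 139 in the controls, again without overlap, at a log2 fold change of -0.34.

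Cdk1, the mitotic kinase itself, did not share this position. It had 304 and 266 in the Eif5 cKO libraries against 275 and 261 in the controls, so the groups overlapped. Its log2 fold change was 0.09 (SE 0.24, limma adjusted p 0.938), with a 95% interval of -0.40 to 0.57, and it was -0.36 with the libraries scaled on Sertoli cell markers. That scaling moves every gene alike, and puts the median of all genes at -0.44. Ccnb2, cyclin B2 and a partner of CDK1, had 81.8 and 134 in the cKO libraries against 124 and 103 in the controls. The 2 cKO values lay on either side of the controls. For Ccnb1, cyclin B1, only 2 and 6 reads were counted in the cKO libraries against 40 and 8 in the controls, which left it out of the test. Without the filter its log2 fold change was -2.02 (SE 0.89, limma adjusted p 0.433). RefSeq lists pseudogenes of Ccnb1 and Ccnb2 that are not in the deposited table, and the counting of reads with several matches is not described in the labels, so the levels of both genes are uncertain.

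The Aurora kinases and the checkpoint kinase Ttk (MPS1) scattered between libraries. Aurka, the centrosomal Aurora kinase, had 51.1 and 25.1 in the Eif5 cKO libraries against 80.8 and 40.2 in the controls. Aurkb, the Aurora kinase of the chromosomal passenger complex, had 49.99 and 82.5 in the cKO libraries against 71.0 and 81.5 in the controls. Ttk had 62.5 and 135 in the cKO libraries against 149 and 103 in the controls. In all 3 genes the groups overlapped, and their log2 fold changes of -0.65, -0.24 and -0.43 had intervals that included 0.

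The kinetochore and checkpoint genes held 2 of the 3 calls. All 16 were negative in log2 fold change, at a median of -0.40, and 6 had an unadjusted p under 0.05. Bub1, the checkpoint kinase that marks centromeric histone H2A, lies on chromosome 2 at 127800197 to 127831859 (GRCm38). It had 106 and 180.3 in the Eif5 cKO libraries against 339 and 261 in the controls. Both cKO values were well below both controls although each pair was spread. Bub1 fell by 1.10 on the log2 scale (SE 0.27, limma adjusted p 0.0338, interval -1.65 to -0.56), but DESeq2 gave an adjusted p of 0.131. Cenpe, the kinesin that carries chromosomes to the spindle equator and signals to the checkpoint, lies on chromosome 3 at 135212563 to 135273540. Its values were 135 and 155 in the cKO libraries against 317 and 282 in the controls. Both pairs were tight, and the cKO values were near the middle of the distance from 0 to the controls. Cenpe fell by 1.04 on the log2 scale (SE 0.25, limma adjusted p 0.0338, interval -1.55 to -0.53).

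The calls of Bub1, Cenpe and Kif20a were also examined with each library left out. Such a fit has 1 sample in one group, which is assumed to vary like the other group, so its calls rest on a smaller design. How far a lost or gained call reflects that was not tested. Without control replicate 1 their log2 fold changes were -0.91, -0.96 and -1.02, and without control replicate 2 they were -1.29, -1.12 and -1.16. The folds stayed of similar size, and none of the 3 passed in either case. Without cKO replicate 1 they were -0.72, -0.94 and -0.92 and again none passed, while Plk1, Espl1 and Kif4 did. Without cKO replicate 2 all 3 passed, with 6 further members.

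Several other kinetochore genes lay below the controls in both cKO libraries without passing. Cenpf, a large kinetochore and nuclear matrix protein, had 587 and 736 in the Eif5 cKO libraries against 1239 and 1156 in the controls. It had a wide gap between groups relative to the spread within them, at a log2 fold change of -0.86 (SE 0.23, limma adjusted p 0.0607), and DESeq2 gave an adjusted p of 0.0285. Espl1, the separase that cuts cohesin at anaphase, had 151 and 112 in the cKO libraries against 258 and 239 in the controls. The groups did not overlap, at a log2 fold change of -0.93 (SE 0.26, limma adjusted p 0.0964). Cdc20, the activator of the anaphase-promoting complex that the checkpoint inhibits, had 85.2 and 80.7 in the cKO libraries against 154 and 156 in the controls. Its replicates nearly coincided in both groups, and the log2 fold change was -0.90 (SE 0.29, limma adjusted p 0.181).

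The 4 subunits of the NDC80 complex, the microtubule-binding arm of the kinetochore, did not sit together. Spc24 had 43.2 and 68.2 in the Eif5 cKO libraries against 97.9 and 116 in the controls, without overlap, at a log2 fold change of -0.96 (SE 0.34, limma adjusted p 0.245). Its direct partner Spc25 had 167 and 161 in the cKO libraries against 179.5 and 165 in the controls. Spc25 overlapped and was close to level, at a log2 fold change of -0.07 (SE 0.26, limma adjusted p 0.954, interval -0.60 to 0.46). Nuf2 had 206 and 179 in the cKO libraries against 267 and 211 in the controls, and Ndc80 had 93.2 and 87.0 in the cKO libraries against 157 and 90.7 in the controls. Nuf2 just failed to overlap and Ndc80 just overlapped, at log2 fold changes of -0.30 and -0.40. The difference between Spc24 and Spc25 was not tested.

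The checkpoint proteins that bind CDC20 showed smaller differences than Bub1, a contrast that was not tested. Mad2l1 (MAD2) had 101.1 and 117 in the Eif5 cKO libraries against 162 and 103 in the controls. Bub1b (BUBR1) had 191 and 211 in the cKO libraries against 258 and 203 in the controls. Bub3, which holds BUB1 and BUBR1 at the kinetochore, had 134 and 204 in the cKO libraries against 171 and 181 in the controls. The groups overlapped in all 3, and their log2 fold changes ran from -0.25 to -0.09.

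The chromosomal passenger complex, which corrects wrong attachments, also stood closer to the controls. Incenp, its scaffold, had 119 and 118 in the Eif5 cKO libraries against 165 and 127 in the controls. Cdca8 (borealin), which targets the complex to centromeres, had 179.5 and 170.5 in the cKO libraries against 255 and 208 in the controls. Birc5 (survivin) had 69.3 and 87.9 in the cKO libraries against 111 and 87.2 in the controls. Incenp and Cdca8 did not overlap and Birc5 did, and with Aurkb the median log2 fold change of the complex was -0.31. Cenpa, the centromeric histone H3 variant, had 92.0 and 47.6 in the cKO libraries against 84.9 and 95.3 in the controls, so that only the second cKO library was low.

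The spindle motor and cytokinesis genes had the lowest median of the 4 roles, -0.83 over 13 genes, all of them negative. The 4 medians were not tested against each other. One gene passed and 7 had an unadjusted p under 0.05. Kif20a (MKLP2), the kinesin that moves the passenger complex to the central spindle, had 118 and 149 in the Eif5 cKO libraries against 297 and 269.7 in the controls. Both cKO values were far below both controls, and the pairs were fairly tight. Kif20a fell by 1.09 on the log2 scale (SE 0.26, limma adjusted p 0.0282, interval -1.61 to -0.57). The gene overlaps Cdc23, a gene of the anaphase-promoting complex, in RefSeq, and without stated strand counting reads of the shared stretch cannot be assigned. Cdc23 had 416 and 450 in the cKO libraries against 464 and 382 in the controls, so its own level overlapped between groups.

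Kif11 (Eg5), the motor that pushes the spindle poles apart, had 103 and 214 in the Eif5 cKO libraries against 390.1 and 246 in the controls. Both groups were spread and their nearest values were close, so that a log2 fold change of -1.05 had a limma adjusted p of 0.077 (SE 0.29). Kif18a, the motor that damps chromosome movement at the equator, had 61.3 and 86.1 in the cKO libraries against 136 and 156 in the controls. The groups were well apart, at a log2 fold change of -0.99 (SE 0.31, limma adjusted p 0.147). Kif4, the chromokinesin that organises the central spindle with PRC1, had 55.7 and 35.0 in the cKO libraries against 93.9 and 102 in the controls. Again both cKO values were below both controls, at a log2 fold change of -1.13 (SE 0.36, limma adjusted p 0.167). RefSeq lists a Kif4 pseudogene, with the same uncertainty as for Ccnb1.

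Kif2c (MCAK), which takes microtubules apart at wrong attachments, had 34.1 and 73.6 in the Eif5 cKO libraries against 114 and 71.2 in the controls. Kif20b, a kinesin of late cytokinesis, had 172 and 174 in the cKO libraries against 255 and 196 in the controls. Kif2c overlapped and Kif20b did not, at log2 fold changes of -0.83 and -0.37. With Cenpe counted in, the 7 kinesin genes among the members had a median log2 fold change of -1.04, and 6 of the 7 had an unadjusted p under 0.05. Their summed value in the cKO libraries was 0.535 of that in the controls.

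Of the central spindle and cleavage furrow genes, none passed. Prc1, which bundles the microtubules of the central spindle, had 172 and 161 in the Eif5 cKO libraries against 302 and 257 in the controls. Both pairs were tight and far apart, at a log2 fold change of -0.74 (SE 0.25, limma adjusted p 0.203). The span of Prc1 on chromosome 7, 80294445 to 80316259, shares 21669 bases with Rccd1, another gene of the deposited table. As for Kif20a, reads of the shared stretch cannot be assigned without stated strand counting. Ect2, the exchange factor that activates RhoA at the furrow, had 237 and 316 in the cKO libraries against 389 and 360.4 in the controls, without overlap, at a log2 fold change of -0.45. Anln (anillin), the scaffold of the contractile ring, had 95.4 and 94.2 in the cKO libraries against 166 and 95.3 in the controls. Only the first control stood apart in Anln.

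The spindle assembly factors ranged from the lowest fold change among the 44 tested members to values near 0. Nusap1, which bundles microtubules near chromosomes, had 22.7 and 31.4 in the Eif5 cKO libraries against 53.0 and 74.6 in the controls. It did not overlap and had the lowest log2 fold change of the 44 tested members, -1.21, but on few reads (SE 0.44, limma adjusted p 0.252). Hmmr, a spindle pole and hyaluronan-binding protein, had 24.99 and 28.7 in the cKO libraries against 42.4 and 55.1 in the controls, also without overlap, at -0.83. Tpx2, the activator of Aurora A, had 160.2 and 126 in the cKO libraries against 188 and 122 in the controls. Aspm, a spindle pole protein, had 32.9 and 52.9 in the cKO libraries against 46.5 and 45.9 in the controls. Both overlapped, at log2 fold changes of -0.09 and -0.14.

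**Figure D3:**
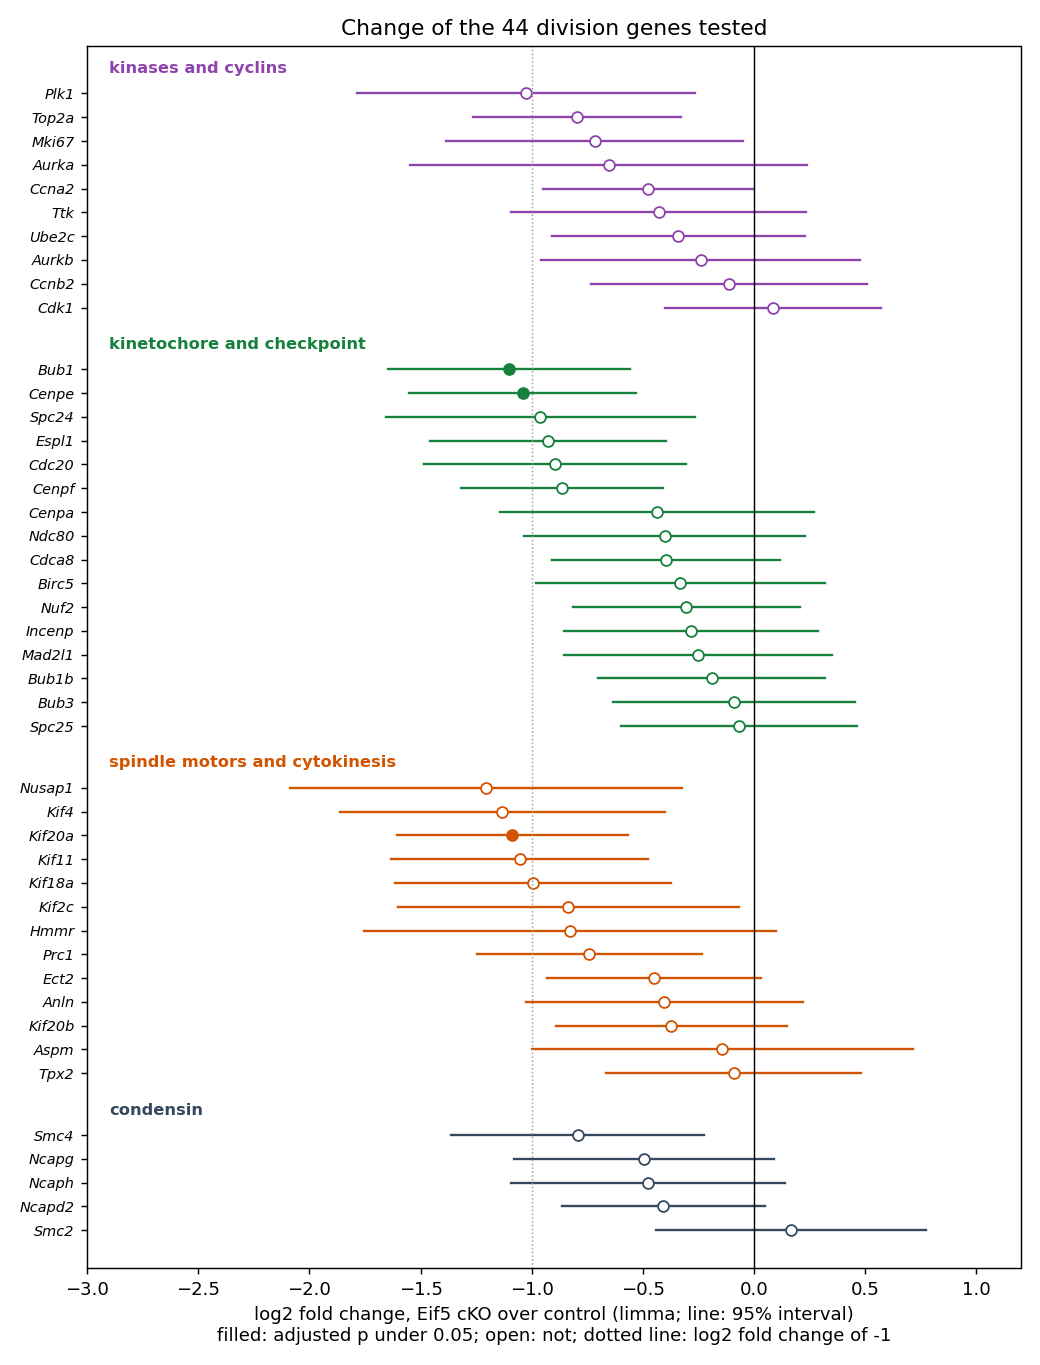
Log2 fold change of each of the 44 tested genes, Eif5 cKO over control, from limma with its 95% interval, ordered within each role. Filled points mark the 3 genes that passed the test, the dotted line marks a log2 fold change of -1, and 18 intervals exclude 0.

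Condensin, the ring that compacts chromosomes, has the ATPase pair SMC2 and SMC4 and, as condensin I, the subunits NCAPD2, NCAPG and NCAPH. None of the 5 genes passed in limma, edgeR or DESeq2, 1 had an unadjusted p under 0.05, 4 were negative, and the median log2 fold change was -0.48. Smc4 had 98.8 and 166 in the Eif5 cKO libraries against 270.1 and 184 in the controls. The groups did not overlap although the nearest values were close, at a log2 fold change of -0.79 (SE 0.28, limma adjusted p 0.244). Smc2, its obligate partner, had 137.5 and 129 in the cKO libraries against 161 and 87.2 in the controls. Both cKO values of Smc2 lay between the controls, and its log2 fold change was 0.17 (SE 0.30, limma adjusted p 0.889, interval -0.44 to 0.78), which was -0.28 with the scaling on Sertoli cell markers that lowers all genes alike. The difference between the partners was not tested.

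Ncapd2, a HEAT-repeat subunit that contacts DNA, had 561 and 463 in the Eif5 cKO libraries against 698 and 655 in the controls. The groups did not overlap, at a log2 fold change of -0.41 (SE 0.23, limma adjusted p 0.541). Ncapg had 95.4 and 103 in the cKO libraries against 138 and 142 in the controls. Its replicates were tight and the groups apart, at a log2 fold change of -0.49 (SE 0.29, limma adjusted p 0.573). Ncaph, the kleisin that closes the ring, had 124 and 75.4 in the cKO libraries against 119 and 153 in the controls. The first cKO value lay between the controls, at a log2 fold change of -0.48 (SE 0.30, limma adjusted p 0.621).

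The 2 Eif5 cKO libraries did not rank the genes alike. Replicate 1 lay below replicate 2 in 24 of the 44 tested members and above it in 20. Replicate 1 was below both controls in 35 members, and replicate 2 in 32. The larger of the 2 cKO values was 3.22 times the smaller for Plk1, 2.16 times for Kif2c, 2.15 times for Ttk, 2.07 times for Kif11, 2.03 times for Aurka and 1.94 times for Cenpa. Plk1, Aurka and Cenpa were lower in replicate 2, while Kif2c, Ttk and Kif11 were lower in replicate 1. Control replicate 1 was above control replicate 2 in 32 of the 44 members.

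**Figure D4:**
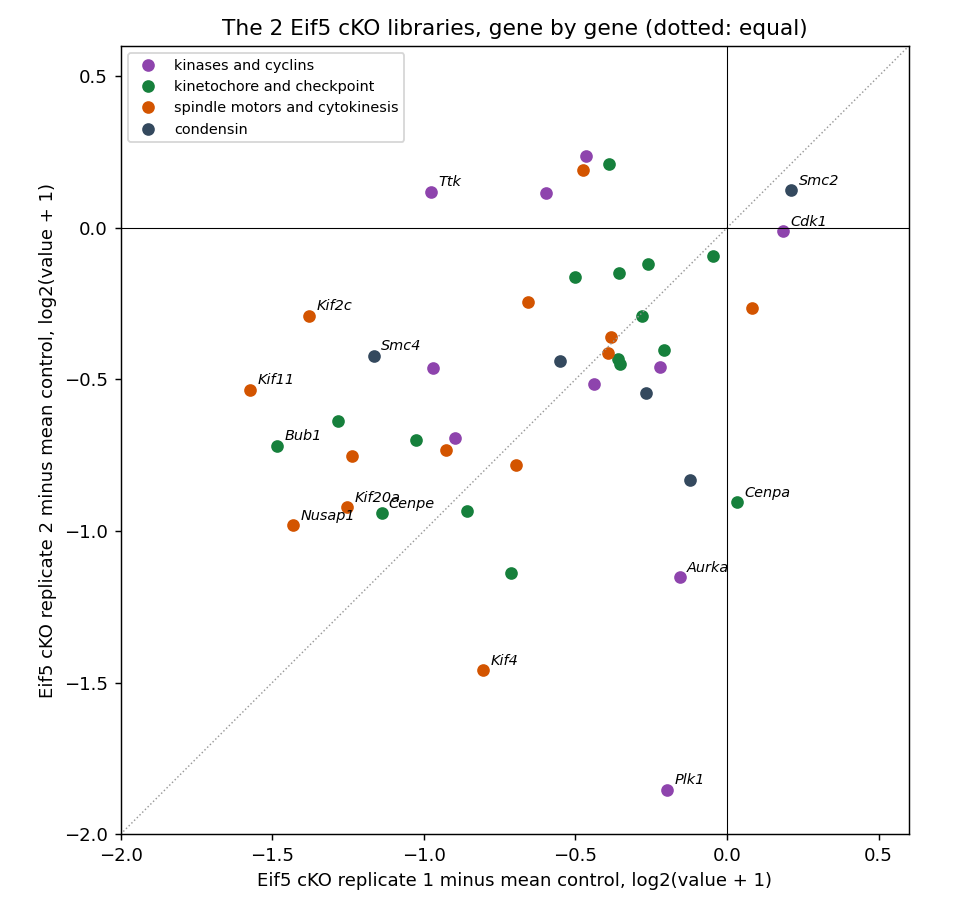
Each tested gene by its difference from the control mean on the log2(value + 1) scale in Eif5 cKO replicate 1 (horizontal) and replicate 2 (vertical), coloured by role, with a dotted line where both are equal. Cenpe and Kif20a lie near the dotted line at about the same distance below 0 in both libraries, while Plk1 and Ttk lie far from it on opposite sides.

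Another 103 division genes were listed beside the members, of which 102 were in the table and 98 were tested. Of these, 81 had a negative log2 fold change and the median was -0.30. One of the 98 fell, a share near the 0.604% of all genes tested, and none rose. At an unadjusted p under 0.05, 20 were lower, against 6.31% of all genes tested, and none were higher. Both cKO libraries lay below both controls in 48, against 20.9% of all genes tested. They lay above both controls in 3, where 2413 of the 12095 genes tested did. The one that fell was Kif15, a kinesin that works beside KIF11 in spindle assembly. It had 92.0 and 114 in the Eif5 cKO libraries against 230.1 and 215 in the controls. Kif15 had tight pairs far apart and fell by 1.11 on the log2 scale (SE 0.27, limma adjusted p 0.0338), but DESeq2 gave an adjusted p of 0.071.

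By sub-list, the 22 tested regulators of mitotic entry and exit had a median log2 fold change of -0.53, with Melk at -1.11 (limma adjusted p 0.113) and Mastl, the Greatwall kinase, at -0.97 (limma adjusted p 0.188). The 14 tested genes of the anaphase-promoting complex, which cells also use outside division, had a median of -0.13, with Anapc4 at -0.47 (limma adjusted p 0.456) and Anapc15 at -0.94 (limma adjusted p 0.64). The 36 further kinetochore and checkpoint genes had a median of -0.29, with Kntc1, a subunit of the RZZ complex, at -0.95 (limma adjusted p 0.0998) and Ska3 at -1.15 (limma adjusted p 0.183). The 23 further spindle and cytokinesis genes had a median of -0.43, with Kif15 and the chromokinesin Kif22 at -0.98 (limma adjusted p 0.266) lowest in p. All 3 subunits particular to condensin II were negative, with Ncapg2 at -0.85 (limma adjusted p 0.157) and Ncapd3 at -0.72 (limma adjusted p 0.252). The genes named are those with the smallest p. Log2 fold changes were positive in 6 of the 22 entry and exit regulators and 3 of the 14 anaphase-promoting complex genes. They were positive in 5 of the 36 kinetochore and checkpoint genes and 3 of the 23 spindle and cytokinesis genes. Among these 5 sub-lists only the further spindle genes held a call, and the sub-lists were not tested against each other.

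Of the cell type markers, those of meiotic and differentiating germ cells had lower medians than the division genes. Of all genes tested, 0.604% fell and 6.31% were lower at an unadjusted p under 0.05. The 22 tested meiotic prophase markers had a median log2 fold change of -1.48, 14 fell, and their summed value was 1751 to 2111 in the Eif5 cKO libraries against 5115 to 5372 in the controls. All 22 had a negative log2 fold change. Spo11 and Rad51ap2, named only for this, had 0 reads in both cKO libraries. Their control reads are not given here, so 0 reads alone does not show how large a difference was. The 12 markers of differentiating spermatogonia had a median of -1.24, 4 fell, and they summed to 1952 to 2069 in the cKO libraries against 3066 to 3413 in the controls. The 18 general germ cell markers had a median of -0.67, 7 fell, and they summed to 3602 to 3672 in the cKO libraries against 6725 to 7328 in the controls. The 10 tested markers of undifferentiated spermatogonia had a median of -0.30, with 6 negative and 4 positive, from -1.73 to 0.28. The groups overlapped in 7 of the 10. None fell in limma, edgeR or DESeq2, and 2 had an unadjusted p under 0.05 in limma. The list summed to 746 to 770 in the cKO libraries against 856 to 959 in the controls.

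Somatic markers lay the other way or near level. Of the 12095 genes tested, 523 were higher at an unadjusted p under 0.05 in limma. After adjustment edgeR called 12 of all genes higher and DESeq2 called 9. The 18 tested Sertoli markers had a median of 0.45. None passed in limma, 8 had an unadjusted p under 0.05 and edgeR and DESeq2 called 1 higher each. They summed to 84524 to 118059 in the Eif5 cKO libraries against 62505 to 85239 in the controls. The 7 tested Leydig markers had a median of 0.72 and the 14 macrophage markers 0.45. No test called any of them, with 5 and 2 at an unadjusted p under 0.05. Peritubular myoid and endothelial markers had medians of -0.19 and 0.10, with no call and 0 genes at an unadjusted p under 0.05. The medians of the division gene lists interleaved with these, the spindle motors lying below the general germ cell markers and the anaphase-promoting complex above the peritubular myoid markers. What part the number of germ cells had in the values of the division genes was not tested.

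**Figure D5:**
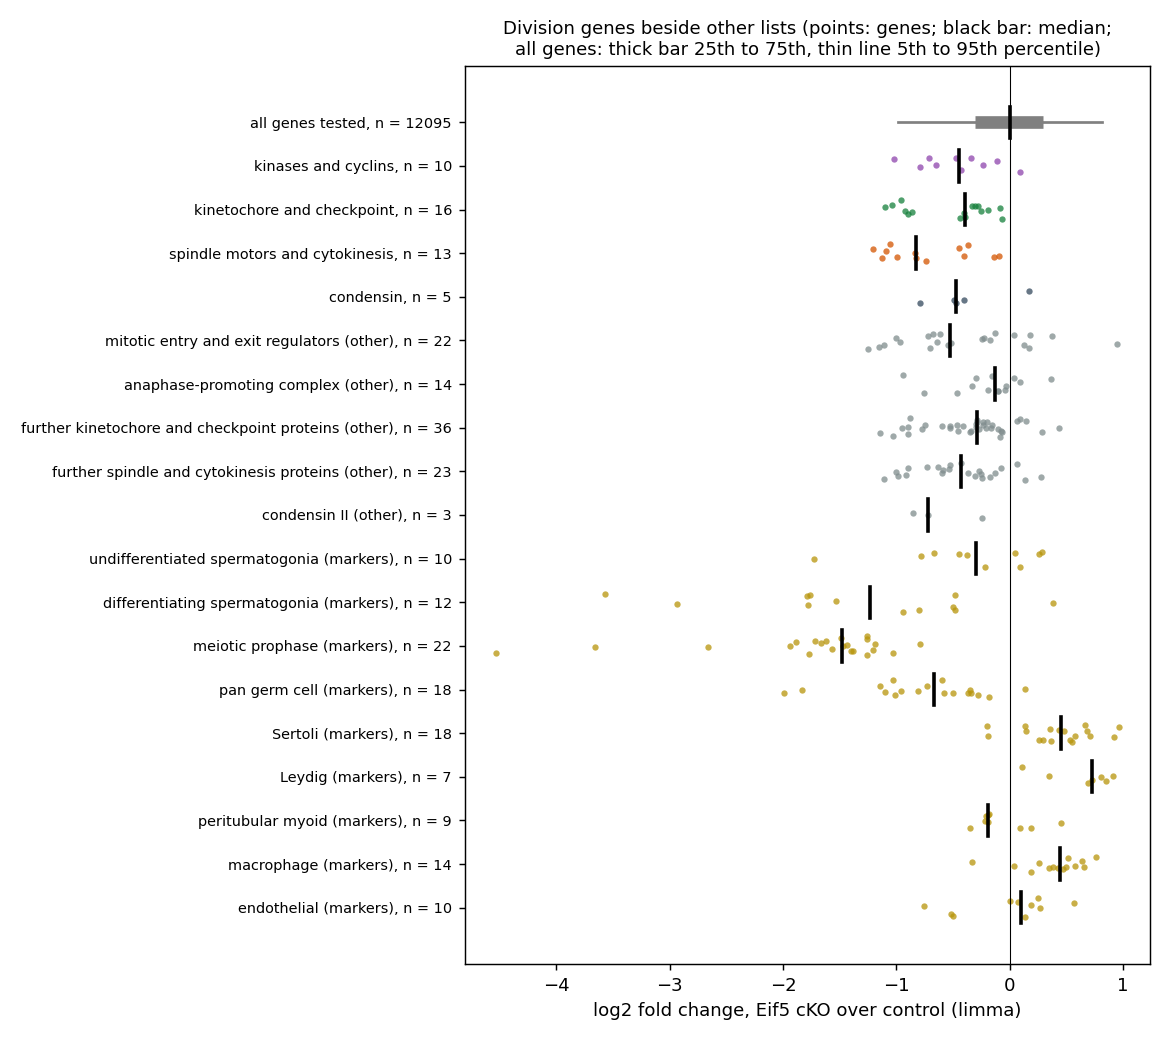
Log2 fold change, Eif5 cKO over control, of each tested gene (points) in the 4 roles, the 5 lists of other division genes and 9 lists of cell type markers, with black bars for medians and, for all 12095 genes, a grey box from the 25th to the 75th percentile and a line from the 5th to the 95th. The medians of the 4 roles lie from -0.83 to -0.40, those of meiotic and differentiating germ cell markers further left, and those of Sertoli, Leydig and macrophage markers right of 0.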

How the data were processed

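Ribosome footprints of 4 whole testis samples were made with the QEZ-seq kit (labels' protocols). Bowtie2, STAR, featureCounts and the build GRCm38 are named in the submitters' processing notes. How strand and multi-mapped reads were handled is not given in the sources used here. The deposited values are a normalized signal that the authors labelled as counts: each column was whole reads divided by a size factor (0.880 and 1.11 for Eif5 cKO, 1.23 and 0.871 for control replicates 1 and 2), and 100% of values gave whole reads back at a tolerance of 1e-06. No column belonged to another sample.

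Because the deposited signal is not raw counts, limma 3.58.1 (R 4.3.3) with an intensity trend was fitted to log2(value + 1), with no term but group. Genes had to pass the filterByExpr filter of edgeR 4.0.16 at a minimum count of 10 reads, which left 12095 of 14984. p-values were two-sided and adjusted by the Benjamini-Hochberg method, with 2 residual and 37.0 prior degrees of freedom. The pseudocount shrinks the fold changes of low genes. The fits were tested on simulated data in which 200 genes were lowered in the cKO libraries. Of 2-fold changes limma recovered 29%, edgeR 27% and DESeq2 18%. Of 4-fold changes they recovered 73%, 74% and 67%. With no gene changed, each called 0 genes. edgeR and DESeq2 1.42.0 on the recovered reads were alternatives, as were TMM scaling, scaling on the summed reads of Sertoli markers, pseudocounts of 0.5 and 4, no filter, a filter of 50 reads in 2 libraries, leaving out each library and a replicate block. Depth, as reads recovered over the deposited genes, was 2225964 to 2934609 per library, and the limma fit did not weight libraries by it.

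The 45 members and the other gene lists were chosen with earlier results of these data known. Named are Eif5, called members, the 4 smallest p in each role, the 3 highest log2 fold changes, and among other division genes the called ones and the 2 smallest p in each of 5 sub-lists. The remaining members are given by their values. No statistical test was made over a list. Of the 45 members, 10 overlap another gene of the deposited table in RefSeq. Promoters and gene coordinates came from RefSeq tables for GRCm38.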

Additional observations from a re-analysis of the deposited data

How the results depend on the processing

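Of the 44 tested members, 42 were negative under edgeR, DESeq2, TMM scaling, both other pseudocounts and the replicate block. The 3 member calls held under edgeR, TMM scaling, both pseudocounts, no filter and the filter of 50 reads. Over all alternatives the adjusted p ran from 5.19e-04 to 0.675 for Bub1, from 0.0133 to 0.573 for Cenpe and from 0.00591 to 0.532 for Kif20a. Scaling on Sertoli markers moved the median of all genes by -0.44, left 0 members and 0 other division genes called lower (smallest member adjusted p 0.0686) and 1 gene called higher, and gave medians of -0.91 for members and -0.75 for other division genes. Cdk1 (-0.36) and Smc2 (-0.28) became negative through that common shift. The other division genes had 0 calls in DESeq2.

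Leaving out 1 library at a time gave 9 to 244 genes called lower and 1 to 102 called higher, with 0 to 9 members and 0 to 5 other division genes called lower. The member median ran from -0.61 to -0.41 and that of the other division genes from -0.41 to -0.30. Over these 4 fits the log2 fold change crossed 0 in 10 members. Without control replicate 1 it was positive for Ccnb2 (0.02), Mad2l1 and Tpx2. Without control replicate 2 it was negative for Smc2. Without cKO replicate 1 it was positive for Ccnb2, Aurkb, Ttk, Bub3 and Aspm and negative for Cdk1, and without cKO replicate 2 it was positive for Cenpa and Tpx2 (0.083). It ran from -0.46 to 0.24 for Ccnb2, from -0.011 to 0.19 for Cdk1, from -0.60 to 0.12 for Aurkb, from -0.98 to 0.12 for Ttk, from -0.39 to 0.21 for Bub3, from -0.58 to 0.071 for Mad2l1, from -0.91 to 0.033 for Cenpa, from -0.40 to 0.22 for Tpx2, from -0.48 to 0.19 for Aspm and from -0.27 to 0.61 for Smc2. The cause was not tested, and none of these genes passed in the first place.

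The labels do not say whether same-numbered samples were paired. Deviations of same-numbered samples from their group means correlated at -0.0465. With 2 samples per group the deviations mirror each other, so this value cannot decide whether there was pairing. A replicate block called 4 members, with Kif11 added, and 14 genes higher in all. Ccnb1 had too few reads for the test, and why its reads were few was not tested.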

Other observations

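Kinesin genes were compared inside and outside the division lists, a grouping chosen after the values were seen. Of the 13 kinesin genes in the division lists, members and others together, 12 were tested. Their median log2 fold change was -0.9996, 3 fell (Cenpe, Kif20a and Kif15), where 0.604% of all genes tested fell, and 9 were lower at an unadjusted p under 0.05, where 6.31% of all genes tested were. Because the grouping followed from the values, these counts are a description only. Of 28 kinesin genes outside the lists, 22 were tested, with log2 fold changes from -1.34 for Kif7 to 1.13 for Kifc3. Their median log2 fold change was -0.28 and none passed limma's test. At an unadjusted p under 0.05, 3 were lower and 1 was higher. Kif3a, a motor of cilia and intraflagellar transport, had 126 and 143 in the Eif5 cKO libraries against 218 and 249 in the controls, at a log2 fold change of -0.79 (limma adjusted p 0.184). Kif5b, a conventional kinesin, had 1829 and 1956 in the cKO libraries against 1578 and 1855 in the controls, so its groups overlapped. The difference between the 2 sets of kinesin genes was not tested.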
